A study of Mus musculus with 6 samples.

Results

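The Ly6 surface antigen genes were examined in tumour-infiltrating CD8+ T cells. The tumours were of MC38, a colon carcinoma line of the mouse, on C57/B6J animals, and the cells were sorted by flow cytometry. Members were the rows of the deposited gene table whose symbol begins with Ly6 and a letter, 7 of its 6467 genes: Ly6c2, Ly6c1, Ly6e, Ly6a2, Ly6g5b, Ly6i and Ly6d. The 6 RNA-seq libraries, all of wild-type genotype, fall into 3 labelled PBS and 3 labelled αPD-1-IL-15-R, an agent the labels do not describe further. The agent was given intraperitoneally, 30 µg on each of days 14 and 17, with isolation 48 hours after the second dose. There is no arm with anti-PD-1 only or with IL-15 only, ages are not given in the labels, and the labels do not say whether a library came from 1 mouse or a pool, so p-values measure the spread between these libraries only.

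Ly6 proteins are small, cysteine-rich proteins that fold into a three-finger domain and are mostly held on the outer cell surface by a glycosylphosphatidylinositol (GPI) lipid anchor. The Ly6C antigen, encoded by the near-identical genes Ly6c1 and Ly6c2, marks inflammatory monocytes and is also carried by effector and memory CD8+ T cells and by endothelial cells. Ly6E is a broadly expressed, interferon-inducible member first known from thymocytes, whereas Ly6D is known from keratinocytes and from lymphocyte progenitors. Most mouse Ly6 genes lie in 1 cluster on chromosome 15. In the RefSeq annotation of GRCm38.p6, 21 protein-coding genes carry such a symbol, 15 of them on chromosome 15 and 6 on chromosome 17. Ly6g5b is the member from chromosome 17. Ly6i and Ly6c1 lie on either side of Ly6a among coding genes, and Ly6c2 and Ly6a2 follow Ly6c1 in order. Ly6a, the gene of Sca-1, and Ly6g, the gene of the neutrophil antigen Gr-1, are outside the table, and no level is given for them.

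The coding sequences of Ly6c2 and Ly6c1 are shown first, since these 2 genes had opposite changes and share reads. The first 300 coding bases follow, 5′ to 3′, from the GENCODE M21 transcripts of GRCm38, with capitals at the bases that differ between the 2 genes.
Ly6c2: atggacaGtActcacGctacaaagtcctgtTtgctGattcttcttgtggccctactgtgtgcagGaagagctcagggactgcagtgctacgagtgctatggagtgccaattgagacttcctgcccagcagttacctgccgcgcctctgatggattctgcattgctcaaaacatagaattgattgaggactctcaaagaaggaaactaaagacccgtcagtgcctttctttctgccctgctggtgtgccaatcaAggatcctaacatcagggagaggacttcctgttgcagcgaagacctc
Ly6c1: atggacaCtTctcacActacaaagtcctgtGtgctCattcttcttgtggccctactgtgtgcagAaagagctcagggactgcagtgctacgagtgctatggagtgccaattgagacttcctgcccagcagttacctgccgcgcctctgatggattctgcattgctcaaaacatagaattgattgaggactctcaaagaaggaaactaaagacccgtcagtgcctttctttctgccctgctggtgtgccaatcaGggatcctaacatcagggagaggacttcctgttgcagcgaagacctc

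Over the full 393 coding bases, Ly6c2 and Ly6c1 differed at 9, an identity of 97.7%, and the longest identical run was 188 bases. Ly6i was less alike, at 83.2% identity with Ly6c2 and 83.5% with Ly6c1. Ly6e and Ly6d were distant from Ly6c2, at 57.2% and 60.3% of aligned bases. Of the 100-base windows of the Ly6c2 transcript, 15.8% occur unchanged in that of Ly6c1, and of 50-base windows 32.6% do.

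The upstream regions of the 2 Ly6C genes differed more than their coding parts. They are shown because the 2 genes had opposite changes, as RefSeq gives them for GRCm38.p6, from 250 bases before to 50 after a transcription start, read 5′ to 3′ on the minus strand. Ly6c2 is chr15:75111922-75112221 and Ly6c1 is chr15:75048788-75049087. Capitals mark bases that differ, or have no partner, within the stretch that both windows cover.
Ly6c2: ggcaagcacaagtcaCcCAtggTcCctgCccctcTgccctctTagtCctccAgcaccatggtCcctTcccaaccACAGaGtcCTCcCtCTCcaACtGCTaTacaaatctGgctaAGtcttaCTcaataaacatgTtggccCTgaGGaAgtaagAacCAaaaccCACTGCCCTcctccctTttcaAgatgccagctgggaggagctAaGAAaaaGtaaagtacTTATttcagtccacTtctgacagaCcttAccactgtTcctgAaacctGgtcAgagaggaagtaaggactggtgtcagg
Ly6c1: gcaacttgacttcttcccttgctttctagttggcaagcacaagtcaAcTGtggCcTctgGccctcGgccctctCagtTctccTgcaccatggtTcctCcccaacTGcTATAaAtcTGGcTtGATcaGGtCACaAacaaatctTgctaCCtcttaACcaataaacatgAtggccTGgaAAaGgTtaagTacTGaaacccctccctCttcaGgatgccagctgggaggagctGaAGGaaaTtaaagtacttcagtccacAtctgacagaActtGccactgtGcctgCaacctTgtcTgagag

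Of 266 aligned bases, 58 differed, an identity of 78.2%. RefSeq promoters were found for 4 of the 7 members: Ly6c2, Ly6c1, Ly6a2 and Ly6g5b. None of their windows held the STAT motif TTCNNNGAA or the T-box motif AGGTGTGA on either strand, which 8.30% and 1.28% of all 32851 promoter windows hold. The ETS core GGAAGT occurred 2 times in the Ly6c2 window shown and 0 times in the Ly6c1 window shown, against 23.8% of all windows with a match on either strand. The later Ly6c2 match lies past the end of the Ly6c1 window, so the windows cannot be compared there. In other start windows the core occurred 2 times for Ly6a2, 1 time for Ly6c1 and 1 time for Ly6g5b. These are matches of letters only.

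All 7 members had passed the authors' threshold, a q-value under 0.05, by the making of the table, which holds 37.9% of the 17077 genes they tested; 7 of the 21 annotated Ly6 coding genes, or 33.3%, are in it. By the authors' deposited table, 4 members had higher values in the treated libraries (Ly6c2, Ly6e, Ly6a2 and Ly6g5b) and 3 were lower (Ly6c1, Ly6i and Ly6d). The median log2 change of the 7 was 0.62, against -0.62 over the whole table. Refitted with edgeR's quasi-likelihood test, 3 members passed a Benjamini-Hochberg adjusted p of 0.05, with Ly6e and Ly6a2 rising and Ly6d falling, where 37.2% of the fitted table genes passed. For all 7 members the groups did not overlap in normalised reads, which are the deposited counts divided by the authors' size factors. The same held for 99.3% of the table's genes, 42.1% with the treated group above and 57.2% with it below; by the table's own direction the shares were 42.3% and 57.7%. Calls by edgeR were higher for 16.5% and lower for 20.7% of fitted genes.

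**Figure D1:**
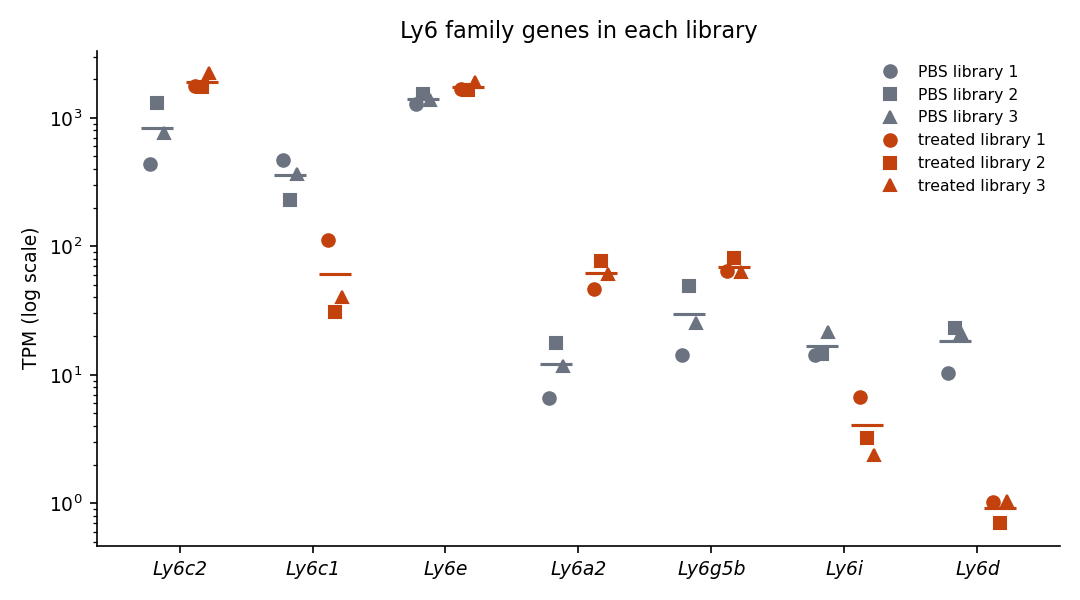
TPM (transcript share scaled for length and depth, log scale) of each Ly6 gene in the 3 PBS libraries (grey) and the 3 treated libraries (orange), with marker shapes for library numbers and bars for group means. Ly6e and Ly6c2 are the most abundant members, and Ly6d has the widest gap between the groups.

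The labelled cell type and the other cells in the libraries were checked first. Beside each marker list stand the shares over the whole table, 42.3% higher and 57.7% lower. EdgeR called 16.5% of fitted genes higher and 20.7% lower. Of 20 T cell markers, 12 were in the authors' deposited table, all 12 with the treated group higher. None passed edgeR, with adjusted p from 0.057 to 0.14. Their summed TPM was 1088, 3027 and 1824 in PBS libraries 1 to 3 and 3144, 3754 and 3540 in treated libraries 1 to 3. Sums and scalings on T cell markers use only these 12. All had passed the authors' threshold as higher, which by itself lowers treated values set against them. Cd8b1, a chain of the sorted CD8 receptor, was present at 7852 ± 4022 normalised reads in PBS (SD, n = 3), while Cd8a and Cd3e are outside the table. All 20 monocyte and macrophage markers were in the table, 18 of them lower, and edgeR called 14 lower. Their summed TPM was between 3984 and 5488 in PBS and between 1114 and 1807 in the treated libraries, with treated library 1 the highest of its group and no marker at 0. The 2 markers that were higher, Plac8 and Ccr2, made up 4.59% to 11.2% of this sum in PBS and 27.0%, 62.7% and 60.9% of it in treated libraries 1 to 3. Plasmacytoid dendritic cell markers were lower for 9 of 9 in the table (7 called), with summed TPM of 289 to 339 in PBS and 118 to 177 in treated libraries. Conventional dendritic cell markers were lower for 8 of 9, and endothelial markers for 11 of 11, with summed TPM of 14.8 to 24.9 against 2.9 to 5.1. Of other lists, NK cell markers were higher for 10 of 12 in the table, fibroblast and pericyte markers lower for 13 of 14 and keratinocyte markers lower for 4 of 5. Of the neutrophil, B cell, epithelial and erythroid lists, 3, 1, 1 and 1 genes were in the table. Whether these cells contributed to the member changes was not tested, and in bulk libraries fewer cells of a type and less RNA per cell cannot be told apart.

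Ly6c2 was the member with the highest mean TPM in the treated libraries. Its TPM was 438, 1295 and 764 in PBS libraries 1 to 3 and 1768, 1741 and 2223 in treated libraries 1 to 3. Every treated library was above every PBS library, and PBS library 1, the lowest, also had the lowest sum of T cell markers. Normalised reads went from 5379 ± 2811 to 15483 ± 2337 (SD, n = 3), 2.88-fold or 1.53 ± 0.40 (SE) on the log2 scale, and the edgeR adjusted p was 0.056, just outside the threshold. It passed in 8 alternatives, among them TMM scaling (1.76, with 51% of genes called), DESeq2 (1.53, 98.2%) and leaving out PBS library 2 (2.01, 47.8%). In 9 alternatives it did not pass, among them total-read scaling (1.33) and leaving out PBS library 1 (1.24). Also among these 9, it stood at 0.41 (edgeR adjusted p = 0.52) when libraries were scaled on the T cell markers. Those markers had all passed as higher, which by itself lowers treated values. A free-text column of the authors' deposited table carries the word stem-like in the Ly6c2 row.

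Ly6c1, the other Ly6C gene, had the opposite direction. Its TPM was 473, 231 and 364 in PBS libraries 1 to 3 and 113, 30.7 and 40.5 in treated libraries 1 to 3. The highest PBS library for Ly6c1 was the lowest for Ly6c2, and treated library 1 stood above the other treated libraries. Normalised reads went from 2405 ± 905 to 488 ± 350 (SD, n = 3), 4.93-fold lower or -2.30 ± 0.58 (SE) on the log2 scale, and the edgeR adjusted p was 0.053. It passed in 11 alternatives, among them TMM scaling (-2.04, with 51% of genes called), total-read scaling (-2.47, 38.9%) and leaving out treated library 1 (-3.07, 71.6%). In 6 alternatives it did not pass.

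The ratio of the 2 Ly6C genes was free of scaling between libraries. Ly6c2 stood at 0.925, 5.61 and 2.10 times the TPM of Ly6c1 in PBS libraries 1 to 3 and at 15.7, 56.7 and 54.9 times in treated libraries 1 to 3. Ly6c2 thus held 47.0% to 84.5% of the pair's reads in PBS and 93.9% to 98.3% in treated libraries. The ratio of summed T cell to summed monocyte marker TPM was 0.273, 0.717 and 0.332 in PBS and 1.74, 3.30 and 3.18 in treated libraries, and the 6 libraries took the same order by both ratios. This ratio was chosen after the values were seen and was given no test.

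**Figure D2:**
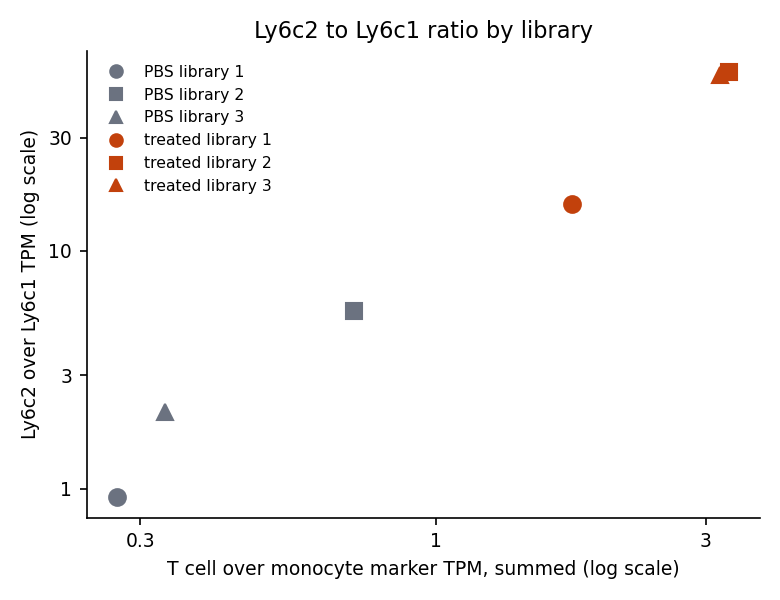
Ratio of Ly6c2 to Ly6c1 TPM (y axis, log scale) against the ratio of summed T cell to summed monocyte and macrophage marker TPM (x axis, log scale), 1 point per library. PBS library 1 is lowest on both axes at 0.273 and 0.925, and treated library 2 is highest at 3.30 and 56.7.

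Reads of the 2 genes were partly shared by the counting. Within a tolerance of 0.005 reads, both counts were whole only in treated library 1. In 4 of the other 5 libraries the fractions cancelled when Ly6c1 and Ly6c2 were added, and in PBS library 2 they cancelled once Ly6i was added as well (1600.55, 8701.38 and 111.07 reads, 10413 in all). The value of each Ly6C gene alone is therefore uncertain by the reads that were divided. Summed into 1 row, the pair rose from 7784 ± 1972 to 15971 ± 2155 normalised reads (SD, n = 3), or 1.04 ± 0.21 (SE) on the log2 scale (edgeR adjusted p = 0.044). Summing was chosen after the values were seen. The sum did not overlap between groups, at 6343 to 10032 normalised reads in PBS and 14621 to 18456 in treated libraries.

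Ly6e was the most abundant member in PBS and varied least. Its TPM was 1270, 1541 and 1382 in PBS libraries 1 to 3 and 1677, 1640 and 1886 in treated libraries 1 to 3. The largest PBS value was close to the smallest treated one, and in normalised reads the highest library of each group stood 1.19 and 1.20 times above its lowest, in PBS and treated. Ly6e rose from 20954 ± 2014 to 32133 ± 2896 normalised reads (SD, n = 3), 1.53-fold or 0.62 ± 0.12 (SE) on the log2 scale (edgeR adjusted p = 0.041). The direction depended on scaling: relative to the T cell markers the log2 change was -0.72. Those markers had all passed the authors' threshold as higher, which by itself lowers treated values, so the reversal is no result about Ly6e alone.

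Ly6a2 had the largest rise of the family. RefSeq lists it as a coding gene next to Ly6c2, while GENCODE M21 holds its transcript under the name I830127L07Rik. No coding sequence of Ly6a2 was extracted or compared, and no function is stated here. Its TPM was 6.57, 17.8 and 11.8 in PBS libraries 1 to 3 and 46.8, 77.0 and 61.0 in treated libraries 1 to 3. All treated libraries were well above the PBS ones, and no fractional reads were listed. Ly6a2 rose from 90.0 ± 42.3 to 571 ± 161 normalised reads (SD, n = 3), 6.34-fold or 2.66 ± 0.43 (SE) on the log2 scale (edgeR adjusted p = 0.040). Its change stood at percentile 98.9 of the table.

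Ly6g5b lies apart from the chromosome 15 cluster, among the Ly6 genes of the major histocompatibility region on chromosome 17. Its TPM was 14.2, 49.1 and 25.4 in PBS libraries 1 to 3 and 64.2, 81.5 and 63.0 in treated libraries 1 to 3. PBS library 2 approached the treated libraries, and the libraries within PBS spanned 2.99-fold in normalised reads. The difference was 1.42 ± 0.42 (SE) on the log2 scale (edgeR adjusted p = 0.069). Ly6g5b passed in 7 alternatives, among them leaving out PBS library 2 (1.96, with 47.8% of genes called), and did not in 10. Its annotated span overlaps that of Csnk2b, the gene of a casein kinase subunit, and its counts were fractional in all 6 libraries, so its values are uncertain by any reads divided with another gene. Within the family its pattern was the closest to Ly6c2, with a root-mean-square difference of 0.21 on the log2 scale over the 6 libraries after each gene's mean was removed.

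Ly6i, known from bone marrow and myeloid cells, was low throughout. Its TPM was 14.3, 14.5 and 21.7 in PBS libraries 1 to 3 and 6.70, 3.22 and 2.38 in treated libraries 1 to 3. The treated libraries were all lower, with library 1 the nearest to PBS. Normalised reads went from 124 ± 25.0 to 38.4 ± 22.0 (SD, n = 3), or -1.69 ± 0.47 (SE) on the log2 scale (edgeR adjusted p = 0.061). Ly6i passed in 7 alternatives, among them median-ratio scaling (-1.34, with 63.2% of genes called) and leaving out treated library 1 (-2.25, 71.6%). In 10 alternatives it did not pass.

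Ly6d had the largest fall of the family. Its TPM was 10.3, 23.3 and 21.3 in PBS libraries 1 to 3 and 1.03, 0.70 and 1.05 in treated libraries 1 to 3. The 3 treated libraries were close together and held 6, 4 and 6 reads, so the treated level rests on few reads, against 57 to 116 reads in PBS. Ly6d fell from 87.6 ± 31.3 to 5.6 ± 1.1 normalised reads (SD, n = 3), 15.7-fold lower or -3.94 ± 0.44 (SE) on the log2 scale (edgeR adjusted p = 0.040). Its change stood at percentile 1.35 of the table.

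The 3 edgeR calls depended on the libraries entered. Without PBS library 1, PBS library 3, treated library 2 or treated library 3, edgeR called 0 genes in the whole table and 0 of the 7 members, while 6 or 7 members and 4222 to 4884 table genes kept an unadjusted p under 0.05 in each of these fits. With all 6 libraries, DESeq2 and limma-voom each called 7 of 7, where they called 98.2% and 75.8% of table genes. The count was 5 with TMM scaling (51% of genes), 7 with median-ratio scaling (63.2%), 3 with total-read scaling (38.9%) and 4 with no filter (44%). It was 4 by limma on log2(TPM + 1) (63.5%) and on log2(TPM + 0.1) (62.8%), 7 when adjusted over the table's genes alone (97.8%), 6 with the replicate number as a block (69.4%), 5 without PBS library 2 (47.8%) and 7 without treated library 1 (71.6%). With the T cell marker scaling 0% of genes and no member passed edgeR, with 4 members at an unadjusted p under 0.05.

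**Figure D3:**
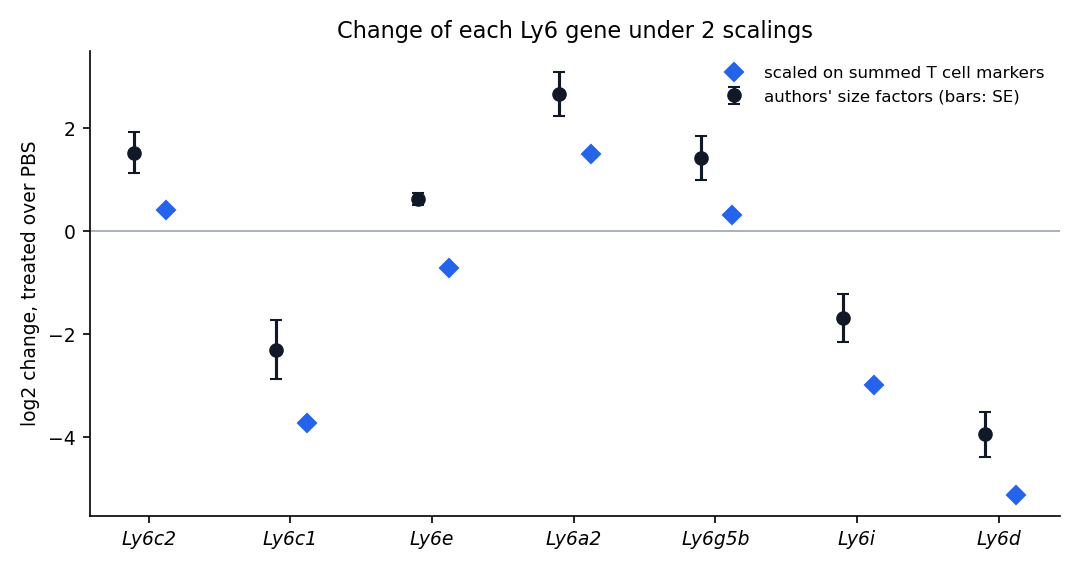
Log2 change, treated over PBS, of each Ly6 gene with the authors' size factors (black, bars are SE) and with libraries scaled on the summed T cell markers (blue, no error drawn). Ly6e turns from 0.62 to -0.72, and the other 6 genes keep their sign. The T cell markers used had all passed as higher, which by itself lowers the blue values.

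The order of levels per length shifted between the groups. In PBS, mean TPM ran from Ly6e at 1398 through Ly6c2 at 832, Ly6c1 at 356, Ly6g5b at 29.6, Ly6d at 18.3 and Ly6i at 16.8 to Ly6a2 at 12.04. The ranges of Ly6e and Ly6c2 overlapped, as did those of Ly6c2 and Ly6c1, and those of Ly6g5b, Ly6d, Ly6i and Ly6a2 overlapped one another in turn. In the treated libraries the order was Ly6c2 at 1911, Ly6e at 1734, Ly6g5b at 69.6, Ly6a2 at 61.6, Ly6c1 at 61.2, Ly6i at 4.1 and Ly6d at 0.93. Ly6c2 and Ly6e overlapped in range there, as did Ly6g5b, Ly6a2 and Ly6c1. Ly6a2 went from the lowest place to the fourth and Ly6d from the fifth to the lowest.

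Within each library, Ly6c2, a member known from T cells, was then set against Ly6d, the member known from epithelium, and against marker sums. The log2 ratio of Ly6c2 to Ly6d was 5.87 ± 0.33 in PBS and 11.3 ± 0.24 in treated libraries (SD, n = 3), a difference of 5.45. Against Ly6i, the myeloid member, the log2 ratio of Ly6c2 was 5.32 ± 0.85 in PBS and 8.77 ± 0.98 in treated libraries (SD, n = 3), a ratio added after the values were seen and not tested. Relative to summed T cell marker TPM, Ly6c2 stood at 40.2%, 42.8% and 41.9% in PBS libraries 1 to 3 and at 56.2%, 46.4% and 62.8% in treated libraries 1 to 3. The PBS libraries, which spanned 2.84-fold in Ly6c2 reads, spanned 1.06-fold on this measure, and the groups differed by 0.39 on the log2 scale. Relative to monocyte and macrophage markers the difference of Ly6c2 was 3.11. Over the 18 that were lower it was 4.07, a choice of markers by outcome that raises the difference by itself. Ly6d relative to the 6 epithelial and keratinocyte markers in the table differed by -2.59, with Epcam, Krt8 and Krt5, the defining markers, outside the table. That value rested on Cdh1 and Sfn, the 2 markers that were higher, which held 11.98% to 31.1% of the sum in PBS and 54.1% to 93.2% in treated libraries. Relative to Krt14, a keratin of basal keratinocytes, Ly6d stood at 5.51%, 29.5% and 16.9% in PBS libraries 1 to 3 and at 3.23%, 27.0% and 31.4% in treated libraries 1 to 3. On that measure the groups overlapped, and over the 4 markers that were lower, also chosen by outcome, they overlapped too, at a log2 difference of -0.10. In the 4 comparisons that were tested (Ly6c2 against Ly6d, T cell markers and monocyte markers, Ly6d against the 6 markers) the groups did not overlap, and the two-sided exact permutation p was 0.10, also after adjustment over the 4, the smallest that 3 against 3 libraries allow. Ly6c2, Ly6d and the marker genes used had all been selected by the authors on the same contrast. Ly6c2 was higher, and Ly6d and the monocyte marker sum lower, each without overlap between groups. The outcomes for Ly6c2 against Ly6d and against monocyte markers were therefore fixed in advance and are not evidence.

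The same division was made for the other members, chosen after the values were seen and with no test. Ly6a2 stood at 0.604%, 0.587% and 0.645% of T cell marker TPM in PBS and at 1.49%, 2.05% and 1.72% in treated libraries 1 to 3. It was even within PBS by this measure, and its treated values did not overlap. Ly6g5b stood at 1.30% to 1.62% in PBS and 1.78% to 2.17% in treated libraries. Ly6e overlapped between groups on it, at 50.9% to 117% and 43.7% to 53.4%. Relative to monocyte and macrophage markers, Ly6i overlapped between groups, at 0.344% to 0.395% in PBS and 0.214% to 0.371% in treated libraries. Without Plac8 and Ccr2 the direction turned, and Ly6i stood at 0.376% to 0.421% of the other 18 markers in PBS and at 0.508% to 0.758% in treated libraries, with no overlap. Those 18 were kept for being lower, which by itself raises the treated shares, so the turn is no result about Ly6i alone. Ly6c1 overlapped relative to all 20 markers, at 5.47% to 11.9% and 2.70% to 6.23%, relative to those 18, at 6.16% to 12.4% and 7.23% to 9.30%, and relative to endothelial markers. Ly6d did not overlap by T cell, monocyte, plasmacytoid dendritic cell or endothelial markers, with log2 differences of -5.17, -2.46, -3.09 and -1.83. The plasmacytoid sum was mostly Bst2, also an interferon-induced gene, at 270 of 312 TPM in PBS library 1 and 165 of 177 in treated library 1. Bst2 changed by -0.55 on the log2 scale, and the other markers of that list by -0.88 (Lair1) to -3.77 (Cox6a2). The -3.09 is therefore mainly a comparison with Bst2, and the difference relative to the other markers of that list was not computed.

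**Figure D4:**
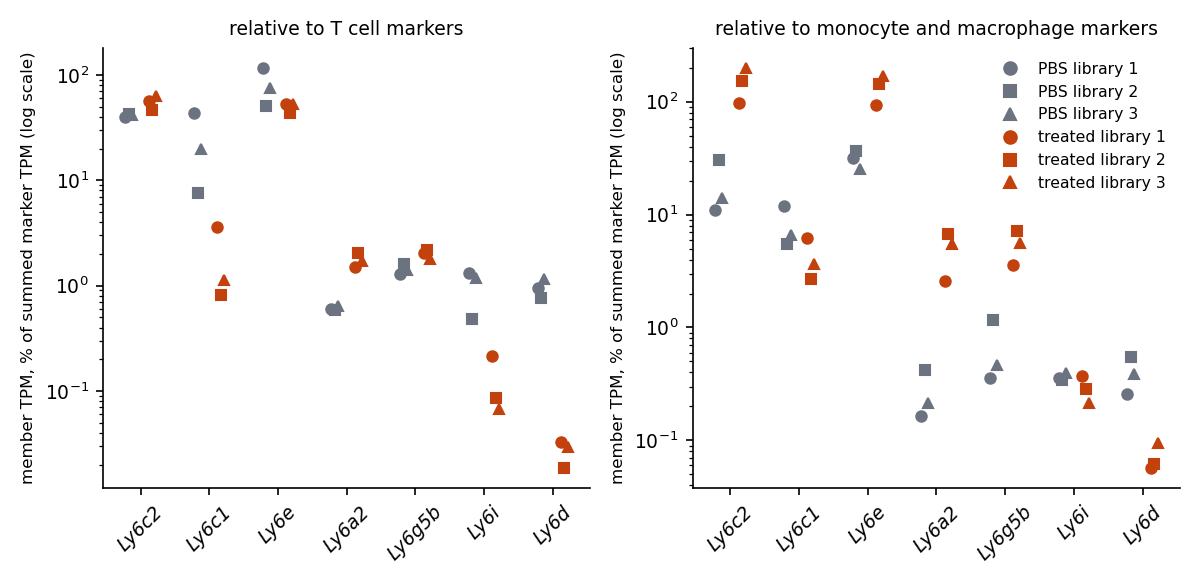
TPM of each Ly6 gene as a percentage of the summed TPM of T cell markers (left) and of monocyte and macrophage markers (right), log scale, 1 point per library. On the left the PBS points of Ly6c2 lie between 40.2% and 42.8% and those of Ly6a2 between 0.587% and 0.645%. On the right the sum includes Plac8 and Ccr2, which were higher in treated libraries. Leaving them out for that reason raises the treated shares by itself, and those of Ly6i (0.508% to 0.758%) then lie above PBS (0.376% to 0.421%).

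The genes whose pattern over the 6 libraries was most like Ly6c2 were Celsr1, Rundc3b, Akap12, Ctse and Sh2d1a, with root-mean-square differences of 0.087 to 0.099 on the log2 scale. Celsr1, the nearest, went from 640 ± 325 to 1901 ± 219 normalised reads. Sh2d1a, the last of the 5, which encodes the signalling adaptor SAP of T and NK cells, went from 168 ± 90.4 to 483 ± 53.5 (SD, n = 3). For Ly6d they were Igfbp3, Cox6a2, Bcl11a, Col15a1 and Ccn2, at 0.336 to 0.397, a looser match. Igfbp3, the nearest, went from 160 ± 67.9 to 12.6 ± 7.0 normalised reads (SD, n = 3). Col15a1 went from 150 ± 62.2 to 16.3 ± 5.57 and Ccn2 from 56.6 ± 24.3 to 5.25 ± 0.28. Cox6a2, a cytochrome oxidase subunit and the only one of the 5 on the plasmacytoid dendritic cell list, went from 78.1 ± 22.99 to 5.6 ± 0.85. Bcl11a, a lymphoid and dendritic cell transcription factor, went from 55.2 ± 29.6 to 3.8 ± 0.98 (SD, n = 3). For the other members, looked at after these, the nearest genes were Gzmc for Ly6a2 (0.139), Tlr13 for Ly6i (0.101), Pkn3 for Ly6c1 (0.069), Erp29 for Ly6e (0.037) and St3gal6 for Ly6g5b (0.048).

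Of 30 relatives with the same protein domain but other symbols, 6 were in the table, 5 of them lower, at a median log2 change of -2.27 against -0.62 over the table. The edgeR fit called 1, where 37.2% of fitted genes passed. Lypd6b rose from 14.7 ± 4.2 to 41.8 ± 7.2 normalised reads (SD, n = 3), or 1.504 ± 0.33 (SE) on the log2 scale (edgeR adjusted p = 0.045). Plaur, the urokinase receptor, stood at 1569 ± 372 in PBS and 464 ± 284 in treated libraries, a difference of -1.76 ± 0.47 (SE) on the log2 scale (edgeR adjusted p = 0.058). Lynx1, a modulator of nicotinic receptors, stood at 277 ± 114 and 45.1 ± 39.0, and Slurp1, a secreted keratinocyte protein, at 92.8 ± 46.4 and 10.6 ± 15.6 (SD, n = 3). Cd177, a neutrophil surface protein, stood at 20.8 ± 9.3 and 5.5 ± 4.0, and Gpihbp1, which carries lipoprotein lipase on capillary endothelium, at 9.6 ± 5.0 and 0.71 ± 1.2. Gpihbp1 had too few reads for the fit.

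Genes that make and attach the GPI anchor were mostly higher among those that passed. Of 32 listed, 14 were in the authors' deposited table, which holds 37.9% of tested genes. Of the 14, 10 were higher and 4 lower (median log2 change 0.47), where 42.3% of the whole table was higher. The edgeR fit called 3 higher and 1 lower, against 16.5% and 20.7% of fitted genes. Gpaa1, a subunit of the transamidase that attaches the anchor, rose from 906 ± 102 to 1390 ± 107 normalised reads (SD, n = 3). Pigx, a partner of the first anchor mannosyltransferase, rose from 536 ± 132 to 1039 ± 97.6, and that transferase gene, Pigm, stood at 575 ± 71.6 and 775 ± 80.8 with an edgeR adjusted p of 0.087. Against 57.7% lower over the whole table, other GPI-anchored leukocyte proteins split into 7 higher and 15 lower (median -1.70). Where edgeR called 16.5% of fitted genes higher and 20.7% lower, it called 1 of these proteins higher and 5 lower. The 3 with the most reads were higher and not called: Thy1 at a log2 change of 1.11 (SE 0.38), Cd52 at 1.14 (SE 0.32) and Cd48 at 1.19 (SE 0.36).

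Of 40 interferon-induced genes, the group Ly6e belongs to, 24 are outside the table. Of the 16 in the authors' deposited table, 6 were higher and 10 lower (median -0.79), a split near that of the whole table (42.3% higher, 57.7% lower), and edgeR called 2 each way. Gbp2, an interferon-induced GTPase, stood at 3837 ± 906 and 1821 ± 870 normalised reads, while Igtp and Gbp7, of the same class, stood at 1737 ± 173 and 2437 ± 223 and at 1676 ± 276 and 2366 ± 59.9 (SD, n = 3); none was called. Memory and trafficking surface molecules of CD8+ T cells were 11 higher and 3 lower (median 1.12). Where edgeR called 16.5% of fitted genes higher and 20.7% lower, it called 4 of these molecules higher and 1 lower. Of these, Il2rb, the receptor chain shared by IL-2 and IL-15, stood at a log2 change of 1.54, Ptprc, the pan-leukocyte CD45, at 1.19 (SE 0.45) and Selplg, the selectin ligand PSGL-1, at 1.22 (SE 0.33), none of them called.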

How the data were processed

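RNA-seq of 6 libraries, 3 per group by the treatment label, was analysed from 1 deposited table. It gives estimated counts of reads by gene, which the authors deposited unscaled; 88.7% to 90.1% per library were whole. TPM values are also the authors', per the file headers. The log2 change, p-value and q-value are the authors' own, and the sources used here do not give their test. HISAT2 and RSEM are named, per the submitters' processing notes, without role or version; the build is not given. Table genes held 8484736 to 9403710 reads per library. Counting error is largest for Ly6d (4 to 6 reads in treated libraries) and Ly6i (20 to 64).

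Adjusting the deposited p-values over 17077 genes returned the q-values, so the table was read as all genes under 0.05 among these. The authors' size factors were recovered from their log2 changes of 3105 genes with over 200 reads in every library. Rounded counts entered edgeR's robust quasi-likelihood test (version 4.0.16, R 4.3.3, group only, 6251 genes after filterByExpr), with Benjamini-Hochberg adjustment over 17077 genes and a threshold of 0.05. Alternatives used DESeq2 1.42.0, limma 3.58.1, other scalings, no filter, TPM with pseudocounts of 1 and 0.1, a replicate block and leave-outs. Ratios used a pseudocount of 0.5 where reads were compared, and likeness used genes with a mean of at least 20 normalised reads.

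Named genes were all members, all relatives in the table, the 3 genes with the most reads of each other list (marker lists are given mainly by counts and sums) and the 5 genes most like Ly6c2 and Ly6d. Members and lists were chosen with earlier results of these data known. Genes outside the table are not analysed here.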

Additional observations from a re-analysis of the deposited data

How the results depend on the processing

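Of the 7 members, 3 were called, where 37.2% of fitted genes were. That count was 5 with TMM scaling (51% of genes) and 7 with median-ratio scaling (63.2%). It was also 7 with DESeq2 (98.2%), with limma-voom (75.8%) and when adjusted over the table's genes alone (97.8%). Scaled on the T cell markers it was 0, where edgeR called no table gene and 4 members had an unadjusted p under 0.05. Leaving out 1 library gave 0 to 7 members, and 0% to 71.6% of genes. Ly6c2, not called at a log2 change of 1.53, was called at 1.76 with TMM scaling, 1.91 with median-ratio scaling and 1.53 with DESeq2. It was also called at 1.65 with limma-voom and 1.53 when adjusted over the table's genes. In 9 alternatives it was not called, among them total-read scaling (1.33), no filter (1.53) and TPM with either pseudocount (1.33). Leaving out 1 library gave 1.24 to 2.01, and scaling on the T cell markers gave 0.41 (edgeR adjusted p = 0.52). Ly6d was no longer called at -5.11 when scaled on the T cell markers, and leaving out 1 library gave -4.21 to -3.72. The cause of these shifts was not tested. Ly6e reversed to -0.72 when scaled on the T cell markers. The 12 markers of that scaling had all passed the authors' threshold as higher, which by itself lowers treated values. Over all fitted genes the median log2 change was -0.57 with the authors' scaling, -0.29 with TMM, -0.15 with median-ratio, -0.76 with total reads and -1.99 with T cell marker scaling, and the share of calls that were higher was 44.3%, 62.8%, 57.3% and 16.9% under the first 4. Without PBS library 1, PBS library 3, treated library 2 or treated library 3 the smallest adjusted p in the table was 0.0876, 0.175, 0.157 and 0.164. Fitting the replicate number as a block called 6 members (Ly6c2 at 1.65), where 69.4% of genes passed. The labels link same-numbered libraries by the number only. Deviations of same-numbered libraries correlated at 0.62, 0.64 and -0.29. Libraries 1 and 2 of each group correlated best with their own number, and library 3 did not. With 3 libraries per group these values cannot decide whether the libraries were paired. The 4 ratios within a library kept their direction with the other unit, the block and each library left out. For Ly6c2 against Ly6d and against monocyte markers this was fixed in advance. With marker sums chosen after seeing the data, Ly6c2 over the lower monocyte markers was 4.07. Ly6d over the lower keratinocyte markers was -0.10 and over Krt14 -0.00038, so the -2.59 depends on the markers summed. The log2 ratio to Krt14 had an SD of 1.23 in PBS and 1.84 in treated libraries. Within PBS, library 1 had the highest Krt14 TPM (188) and the lowest Ly6d TPM (10.3), so Ly6d did not follow Krt14 there. Keeping only markers that were lower raises the treated shares by itself. The treated levels of Ly6d and Ly6i rest on few reads.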
